A study of Saccharomyces cerevisiae with 72 samples.

Results

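The genes described here encode the proteins of the small (40S) subunit of the cytosolic ribosome of budding yeast, chosen by their systematic names as RPS0A through RPS31 plus ASC1. The list holds 57 genes, of which 44 were measured by RNA-seq among 5498 features. The other 13 were not analysed here, either for want of a feature of their own name or, for RPS6A and RPS11B, because the annotation joins them with their sister copy. The 44 comprise 9 genes that exist in a single copy and 35 that belong to A and B pairs, with both copies measured for 14 pairs. They are 24 genes with introns and 20 without.

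The 40S subunit binds the mRNA, scans for the start codon and monitors codon and anticodon pairing in its decoding centre. Each of its proteins is present in a single copy per ribosome, and in yeast most are encoded by a pair of near-identical genes left by an ancient genome duplication. Transcription of these genes is known to follow nutrient signals through the TOR and PKA pathways, with Rap1, Fhl1, Ifh1 and Sfp1 acting at their promoters, and it falls when yeast is starved and enters meiosis.

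All cells were SK1 diploids in which IME1, the gene for the master regulator of meiotic entry, and IME4 were placed under the copper-inducible CUP1 promoter. Cells were starved in sporulation medium (SPO) and 50 µM CuSO4 was added after 2 h, so that 0 h and 2 h precede the induction (2 h is called premeiotic) and 3 h and 4 h follow it (4 h is meiotic prophase). UB22629 carried UME6(T99N)-3V5, irt1::pCUP1-3HA-IME1 and pCUP-IME4::NAT. UB20649 carried UME6-3V5, irt1::pCUP1-3HA-IME1 and ime4::pCUP1-3HA-IME4. The T99N substitution prevents Ume6 from binding Ime1 and so blocks activation of the early meiotic genes, whereas the 3V5 tag was shared by both strains. The strains also differ in the IME4 construct, and the effects of the constructs and of the allele cannot be told apart. RNA-seq was available from 3 libraries of each strain at 0, 2, 3 and 4 h. UB14584, a strain with pCUP-IME1, pCUP-IME4 and amn1(BY4741 allele) whose listed genotype has no UME6-3V5 tag, gave 2 RNA-seq libraries at each of 4 h and 2 h. The same strain gave transcript leader sequencing (TL-seq, which counts capped 5′ ends of mRNA) from replicates 1, 3, 4 and 5 at both times. Ume6-3V5 ChIP-seq came from UB3301 grown to saturation in BYTA, not in SPO. MNase-seq came from UB14584 in SPO, with 4 libraries labelled at each of 4 h and 2 h.

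The expected counts of an RNA-seq library summed to 5013206 to 10368419 in UB22629, 9087102 to 20865934 in UB20649 and 3124472 to 4845107 in UB14584. One library stood apart. The library labelled UB22629 2 h replicate 1 had a level of 1870 CPM (reads scaled to a common library total) for IME1, against 74.5 and 91.2 in replicates 2 and 3, and its profile correlated at 0.993 with UB22629 3 h replicate 1, against 0.948 and 0.958 with the other 2 h libraries of that strain. Some counts of genes and pairs that rest on it are also given without it. Others are given only with it, among them those of large-subunit genes, of members without overlap and of unadjusted tests. Systematic names follow symbols in brackets at first use. Levels below are TMM-scaled CPM, tests are edgeR quasi-likelihood tests over 5488 features, and "rose" or "fell" is used of a gene with a Benjamini-Hochberg adjusted p under 0.05.

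The 40S genes rose together before induction and then fell steeply after it in UB20649. In that strain 43 of 44 were higher at 2 h than at 0 h, against 25.1% of all features called higher and 25.0% called lower. At 3 h all 44 were lower than at 2 h, against 31.2% of all features called lower and 35.0% called higher. At 4 h all 44 were still lower than at 2 h, against 31.0% called lower and 34.2% called higher. The median log2 change was 1.38 at 2 h over 0 h, -2.95 at 3 h over 2 h and -1.82 at 4 h over 2 h, where the medians over all features were 0.01, 0.05 and 0.03. In these 3 comparisons the 3 libraries of one time did not overlap with those of the other for any of the 44 genes. The comparisons at 3 h and 4 h share the 2 h libraries. In bulk RNA, fewer transcripts per cell and fewer cells expressing them cannot be told apart.

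RPS31 (YLR167W), which encodes a fusion of ubiquitin with a 40S protein, was the most abundant single-copy member per length. In UB20649 it had 229, 233 and 229 CPM at 0 h, 634, 559.8 and 578 CPM at 2 h, 65.4, 49.5 and 35.8 CPM at 3 h, and 179, 175 and 112 CPM at 4 h. The 2 h libraries were the highest and the 3 h libraries the lowest, with the 4 h libraries between those of 3 h and 0 h and no overlap between any of these times. Its log2 change at 3 h over 2 h was -3.55 ± 0.20 (SE, edgeR adjusted p = 2.13e-12) and at 4 h over 2 h -1.92 ± 0.18 (edgeR adjusted p = 7.76e-09).

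The deepest falls at 3 h were those of RPS12 (YOR369C, a protein of the beak of the subunit), RPS1B (YML063W, a protein near the mRNA exit channel), RPS7A (YOR096W, needed early in 40S assembly) and RPS24B (YIL069C). RPS12 had 15.4, 10.2 and 5.97 CPM at 3 h, against 197, 190.0 and 135 CPM at 2 h, a log2 change of -4.04 ± 0.27 (SE, edgeR adjusted p = 3.6e-11). RPS1B had 25.5, 22.1 and 15.0 CPM at 3 h, against 363, 325 and 341 CPM at 2 h (log2 change -4.04 ± 0.21, edgeR adjusted p = 7.96e-13). Every 3 h library of both genes lay far below every 2 h library. RPS7A fell by 3.97 and RPS24B by 3.65 on the log2 scale (SE 0.20 and 0.21, edgeR adjusted p = 8.37e-13 and 3.61e-12).

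**Figure D1:**
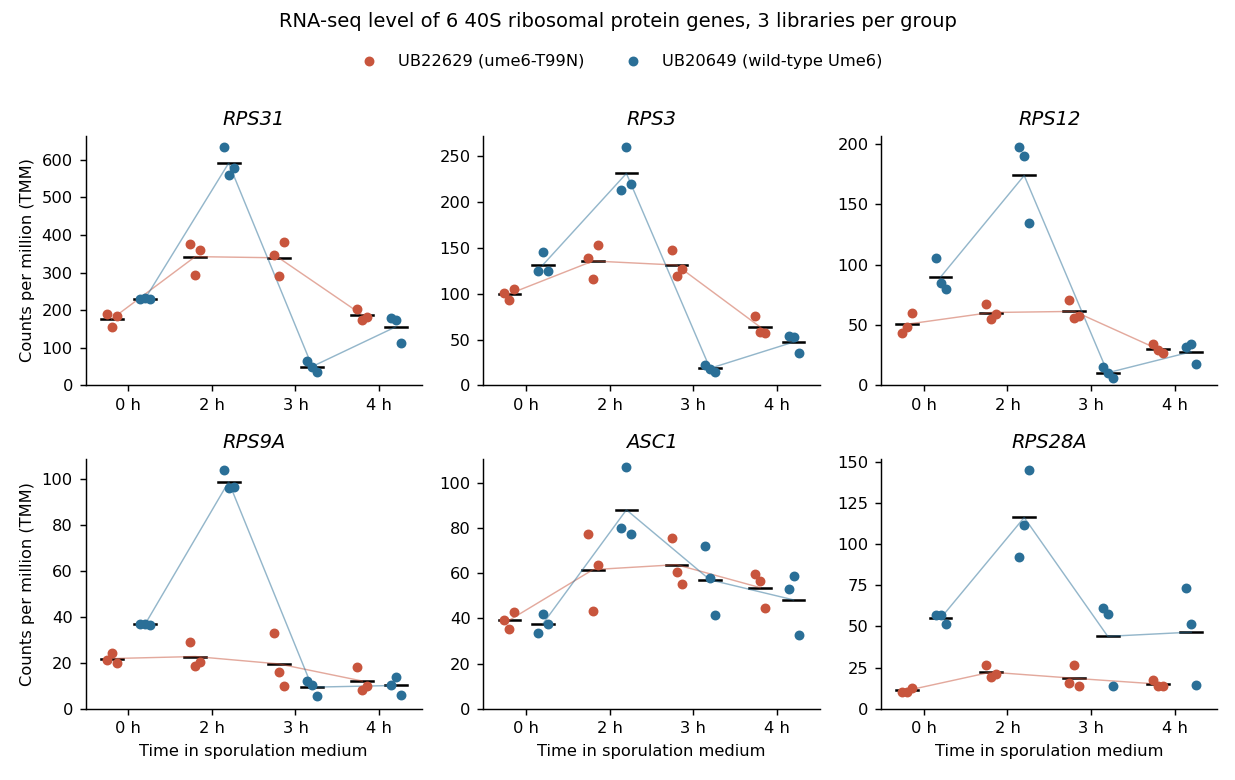
RNA-seq level (TMM-scaled CPM, linear axis from 0) of 6 40S genes against time in SPO, with UB22629 left of UB20649 at each time. Points are libraries (3 per group), bars their means, and lines join the means. RPS31 in UB20649 stood at 559.8 to 634 CPM at 2 h and 35.8 to 65.4 CPM at 3 h, while in UB22629 the 2 h and 3 h libraries overlapped.

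Between 3 h and 4 h most of the levels in UB20649 came back in part. In a comparison added after the values were seen, 35 of 44 genes were higher at 4 h than at 3 h and none was lower, against 20.6% of all features called higher and 18.1% called lower, with a median log2 change of 1.20. Among the largest rises were those of RPS9B (YBR189W) and RPS1B. RPS9B had 50.7, 51.0 and 32.8 CPM at 4 h, against 15.3, 14.1 and 10.2 CPM at 3 h (log2 change 1.76 ± 0.19, SE, edgeR adjusted p = 4.02e-07). RPS1B had 81.8, 76.6 and 48.2 CPM at 4 h, against 25.5, 22.1 and 15.0 CPM at 3 h (log2 change 1.72 ± 0.19, edgeR adjusted p = 5.64e-07). The times did not overlap for either gene. The 9 genes not called included ASC1, RPS28A and RPS9A, whose log2 changes were -0.24 ± 0.22, 0.09 ± 0.42 and 0.12 ± 0.35 (SE, edgeR adjusted p = 0.415, 0.889 and 0.808).

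The median log2 change of the 44 genes relative to 2 h was -2.95 at 3 h and -1.82 at 4 h, and the share of all RNA-seq reads that fell in the 44 genes was 0.340% ± 0.016 at 0 h, 0.821% ± 0.13 at 2 h, 0.170% ± 0.052 at 3 h and 0.305% ± 0.075 at 4 h (SD, n = 3 each). In UB22629 that share was 0.251% ± 0.02 at 0 h, 0.453% ± 0.10 at 2 h, 0.498% ± 0.046 at 3 h and 0.306% ± 0.035 at 4 h. At 4 h the deepest falls relative to 2 h were those of RPS9A (YPL081W), RPS12, RPS7A and RPS16B (YDL083C). RPS9A, one of the genes for a protein known for its part in decoding accuracy, had 10.5, 13.9 and 5.99 CPM at 4 h, against 104, 95.8 and 96.3 CPM at 2 h, and its log2 change was -3.26 ± 0.36 (SE, edgeR adjusted p = 6.14e-08). The 4 h libraries of RPS9A overlapped with its 3 h libraries, which had 11.98, 10.4 and 5.76 CPM, and were 9.57-fold lower by the fit than the 2 h libraries.

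RPS12 at 4 h had 31.5, 34.3 and 17.9 CPM (log2 change -2.63 ± 0.25, SE, edgeR adjusted p = 9.81e-09 against 2 h). RPS7A had 25.6, 23.7 and 12.4 CPM (log2 change -2.32 ± 0.19, edgeR adjusted p = 7.38e-10). RPS16B, which encodes a protein whose tail reaches the P site, had 34.9, 38.5 and 15.4 CPM at 4 h, against 152, 159 and 137 CPM at 2 h (log2 change -2.32 ± 0.28, edgeR adjusted p = 2.95e-07). Replicate 3 was the lowest 4 h library for each of these genes, yet it and the others were well below every 2 h library.

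Among the single-copy genes, RPS2 (YGL123W) and RPS3 (YNL178W), which line the channel where mRNA enters, had log2 changes at 4 h over 2 h of -2.10 ± 0.24 and -2.28 ± 0.17 (SE, edgeR adjusted p = 9.89e-08 and 1.71e-10). RPS13, RPS15 (YOL040C) and RPS20 had -1.52 ± 0.25, -1.57 ± 0.16 and -1.76 ± 0.28 (edgeR adjusted p = 2.02e-05, 1.94e-08 and 1.18e-05). The smallest change of a single-copy gene was that of ASC1 (YMR116C), whose protein is the yeast counterpart of the scaffold RACK1. ASC1 had 53.2, 58.9 and 32.6 CPM at 4 h, against 79.9, 107 and 77.5 CPM at 2 h, a log2 change of -0.86 ± 0.22 (SE, edgeR adjusted p = 0.00179), and at 3 h over 2 h -0.63 ± 0.22 (edgeR adjusted p = 0.0165). In TMM-scaled CPM ASC1 was thus lower after induction in every library, but by less than any other member at both times. In TPM (reads per length, scaled to a common total) it had 46.1, 38.0 and 32.4 at 3 h in UB20649. At 2 h it had 30.0, 33.5 and 26.9 TPM, so its fall at 3 h depends on the scaling.

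The rise at 2 h over 0 h in UB20649 was largest for RPS0A (YGR214W, a protein needed for late 40S maturation), RPS25A (YGR027C, known for its part in internal initiation), RPS26A (YGL189C, a protein of the exit channel) and RPS15. RPS0A had 362, 443 and 363 CPM at 2 h, against 65.6, 89.9 and 79.5 CPM at 0 h, a log2 change of 2.31 ± 0.22 (SE, edgeR adjusted p = 2.3e-08). RPS25A had 316, 336 and 368 CPM at 2 h, against 72.0, 87.6 and 74.8 CPM at 0 h (log2 change 2.12 ± 0.13, edgeR adjusted p = 5.22e-11). The times did not overlap for either gene. RPS26A and RPS15 both had a log2 change of 1.98 (SE 0.25 and 0.16, edgeR adjusted p = 1.67e-06 and 2.86e-09). RPS27A (YKL156W), a zinc-finger protein gene, was the 1 member not called, with 107, 109.7 and 99.9 CPM at 2 h, against 86.8, 75.04 and 66.1 CPM at 0 h.

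In UB22629 many of the 44 genes also rose from 0 h to 2 h, 28 with and 21 without the library labelled 2 h replicate 1. The fall between 2 h and 4 h was smaller than in UB20649 for 34 genes by the interaction test. At 2 h, 28 of 44 genes were higher than at 0 h, against 21.8% of all features called higher and 20.1% called lower, with a median log2 change of 0.80. Whether this rise differed from that in UB20649 was asked with the interaction of strain and time from 0 h to 2 h, added after the values were seen. By edgeR it was called for none of the 44 genes, against 0.237% of all features called higher and 0.383% called lower, and its median was -0.61. It was also called for none with each replicate of both strains left out in turn. For this interaction no count is given that leaves out only the library labelled 2 h replicate 1. At an unadjusted p under 0.05 it was met by 16 genes (all lower in UB22629), and DESeq2 called 1. The shares of all features are not given here for the unadjusted and the DESeq2 counts. At 3 h none was called against 2 h, where 1.17% of all features were called higher and 3.35% lower. By edgeR 1 gene was lower and none higher at an unadjusted p under 0.05, DESeq2 also called none, and the median log2 change was -0.06. At 4 h, 18 of 44 were lower than at 2 h and none was higher, against 14.0% called lower and 11.2% called higher, with a median of -0.67. Without the library labelled 2 h replicate 1, 21 genes were higher at 2 h over 0 h, none was called at 3 h over 2 h and 15 were lower at 4 h over 2 h. Over all features that omission changed the count at 3 h over 2 h to 682 higher and 613 lower. Without replicate 2 the 4 h count was 3, with a median of -0.73, and without replicate 1 or without replicate 2 of both strains the 2 h count was 16.

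**Figure D2:**
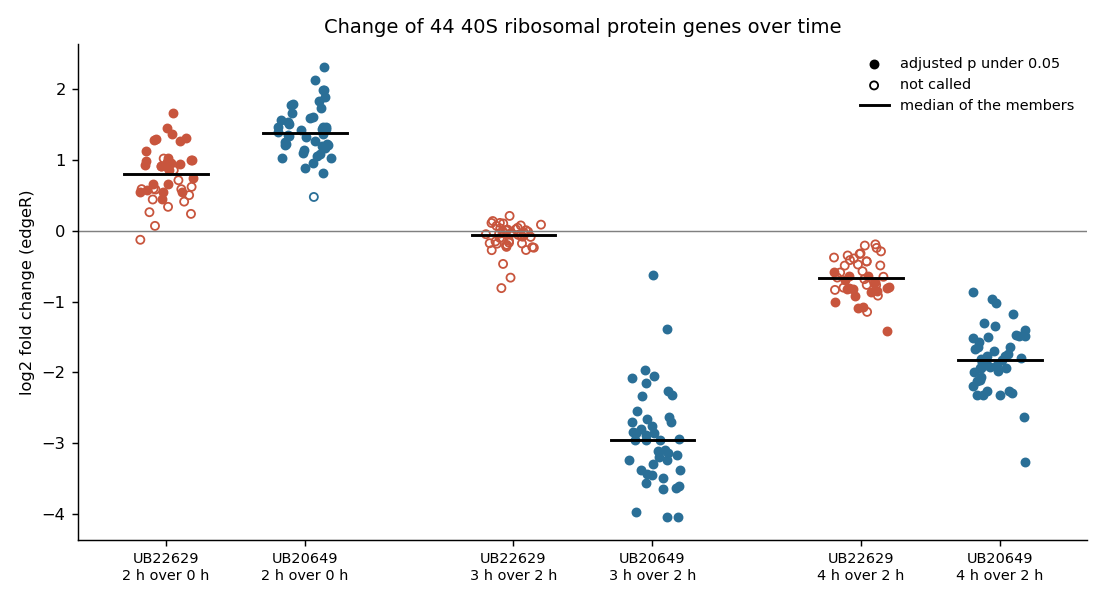
log2 fold change (edgeR) of each of the 44 40S genes for 3 time comparisons, UB22629 left of UB20649 in each. Filled points passed an adjusted p of 0.05, open points did not, and bars are medians. All 44 genes fell in UB20649 at 3 h and 4 h, whereas in UB22629 none was called at 3 h and 18 at 4 h.

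The genes that rose most at 2 h over 0 h in UB22629 were RPS25A, RPS0A, RPS26A and RPS29B (YDL061C). RPS25A had 306, 242 and 297 CPM at 2 h, against 95.1, 77.6 and 95.9 CPM at 0 h, a log2 change of 1.65 ± 0.13 (SE, edgeR adjusted p = 3.36e-09). RPS0A had 256, 193 and 272 CPM at 2 h, against 85.2, 74.9 and 105 CPM at 0 h (log2 change 1.45 ± 0.21, edgeR adjusted p = 1.39e-05). The times did not overlap for either gene. RPS26A and RPS29B had log2 changes of 1.36 ± 0.26 and 1.30 ± 0.44 (SE, edgeR adjusted p = 0.000228 and 0.0227).

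The largest falls at 4 h over 2 h in UB22629 were those of RPS26B (YER131W), RPS3, RPS27A and RPS12. RPS26B had 15.6, 13.4 and 12.1 CPM at 4 h, against 40.9, 29.5 and 38.0 CPM at 2 h, a log2 change of -1.41 ± 0.26 (SE, edgeR adjusted p = 0.000505). RPS3 had 75.6, 58.1 and 57.4 CPM at 4 h, against 139, 115 and 152 CPM at 2 h (log2 change -1.09 ± 0.16, edgeR adjusted p = 9.81e-05). RPS12 had 34.0, 29.2 and 27.1 CPM at 4 h, against 67.6, 54.7 and 58.9 CPM at 2 h (log2 change -1.01 ± 0.25, edgeR adjusted p = 0.00618). The 4 h libraries were below all the 2 h libraries for each, and over the 44 genes this held for 30. RPS27A had a log2 change of -1.08 ± 0.30 (SE, edgeR adjusted p = 0.0129).

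UB22629 and UB20649 were next compared for how far each gene moved between 2 h and 4 h, as the interaction of strain and time. For 34 of 44 genes the change in UB22629 was higher, that is less of a fall, than in UB20649 and for none was it lower, against 18.3% of all features called higher and 20.6% called lower. The strains already differed at 2 h, with a median log2 difference (UB22629 over UB20649) of -1.15, against 0.18 at 4 h. The median of the interaction was 1.14 on the log2 scale. It was largest for RPS9A (2.34 ± 0.50, SE, edgeR adjusted p = 0.000804), RPS16B (1.73 ± 0.39, edgeR adjusted p = 0.00143), RPS12 (1.62 ± 0.35, edgeR adjusted p = 0.000967) and RPS18A (1.57 ± 0.42, edgeR adjusted p = 0.0049), which encodes a head protein. Without the library labelled UB22629 2 h replicate 1 the count was 35, and without any scaling beyond the library total it was 23. In that last setting 477 of 5488 features were called higher and 1953 lower, with a median of -0.43 over all features.

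Set side by side at each time, the strains crossed over. At 0 h, 17 of 44 genes were lower in UB22629 than in UB20649 and none was higher, against 18.6% of all features called lower and 18.4% called higher. That count was 0 without replicate 2, 4 without replicate 1 and 28 without replicate 3 of both strains, all by edgeR. At 2 h, 41 of 44 were lower in UB22629 and none was higher, against 20.9% called lower and 21.0% called higher, with a median log2 difference of -1.15. This count was 17 without replicate 2 of both strains and 42 without the library labelled UB22629 2 h replicate 1. At 3 h, 38 were higher and 1 was lower, against 27.6% called higher and 29.4% called lower, with a median of 1.71. At 4 h, 7 were higher and 6 lower, against 22.5% called higher and 30.2% called lower, with a median of 0.18.

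The 4 h split moved with the settings. It was 1 higher and 7 lower without scaling beyond the library total, 4 higher and 10 lower without replicate 3, 5 higher and none lower without replicate 2, and 4 higher and 2 lower without replicate 1. Without scaling beyond the library total, 667 of 5488 features were called higher and 2135 lower. At this time point no direction can be given for the 40S genes as a group.

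At 3 h the largest differences were those of RPS3, RPS31, RPS1B and RPS0A. RPS3 had 147, 119 and 127 CPM in UB22629, against 22.7, 18.4 and 14.8 CPM in UB20649, a log2 difference of 2.81 ± 0.17 (SE, edgeR adjusted p = 3.94e-11). RPS31 had 346, 291 and 380.1 CPM in UB22629, against 65.4, 49.5 and 35.8 CPM in UB20649 (log2 difference 2.75 ± 0.19, edgeR adjusted p = 1.73e-10). The strains were far apart for both. RPS1B and RPS0A had log2 differences of 2.75 ± 0.20 and 2.68 ± 0.22 (SE, edgeR adjusted p = 3.12e-10 and 2.28e-09).

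At 2 h RPS9A had 28.9, 18.7 and 20.5 CPM in UB22629, against 104, 95.8 and 96.3 CPM in UB20649, a log2 difference of -2.11 ± 0.34 (SE, edgeR adjusted p = 0.000197). The other large differences at 2 h were those of RPS29B, RPS28A (YOR167C) and RPS29A, with -2.39 ± 0.40, -2.37 ± 0.46 and -2.16 ± 0.41 (edgeR adjusted p = 0.000228, 0.000614 and 0.000534). RPS29A and RPS29B encode a small zinc-binding protein of the head, and RPS28A and RPS28B a small protein near the E site. With a listed length of 170 and 203 bp these 4 genes are the shortest members. At 0 h RPS28A already had 10.4, 10.2 and 12.9 CPM in UB22629, against 56.7, 56.9 and 51.4 CPM in UB20649, a log2 difference of -2.31 ± 0.48 (SE, edgeR adjusted p = 0.00151). Its libraries were lower in UB22629 with no overlap at 0 h and at 2 h.

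The length of a feature moved with the strain comparison. Over all 89 features listed with up to 250 bp the median log2 difference, UB22629 over UB20649, was -0.86 at 0 h, -0.88 at 2 h, -0.47 at 3 h and -0.65 at 4 h. Over the 3436 features above 1000 bp it was 0.05, 0.06, 0.02 and -0.01. The 4 shortest members together had 20.6 to 32.6 unscaled CPM in UB22629 and 93.7 to 122 in UB20649 at 0 h. In UB20649 replicate 3 stood apart from the other libraries, with 28.1 at 3 h, against 136 and 106 in replicates 1 and 2, and 37.6 at 4 h, against 146 and 122. The part of length in these results was not tested.

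RPS28A was the 1 member called lower at 3 h, with 15.5, 26.3 and 13.8 CPM in UB22629, against 61.1, 57.3 and 13.6 CPM in UB20649 (log2 difference -1.26 ± 0.45, SE, edgeR adjusted p = 0.0202). The strains overlapped through replicate 3 of UB20649. At 4 h the 6 members called lower were RPS28A, RPS28B, RPS29A, RPS29B, RPS27A and RPS25B, and for all of them the libraries of the strains overlapped. Their log2 differences were -1.64 ± 0.46, -1.88 ± 0.46, -1.02 ± 0.42, -1.39 ± 0.41, -0.94 ± 0.30 and -0.60 ± 0.23 (SE, edgeR adjusted p = 0.00487, 0.00193, 0.0458, 0.0069, 0.0112 and 0.033). Among the 33 members listed above 400 bp, 10 were lower at 0 h, and 6 were higher and 1 lower at 4 h.

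**Figure D3:**
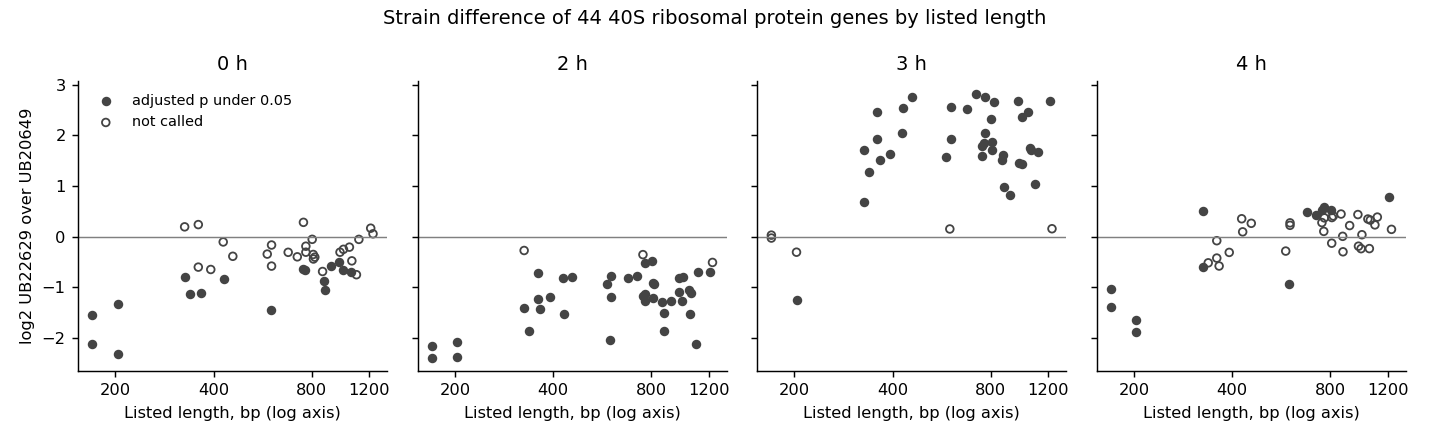
log2 difference (edgeR), UB22629 over UB20649, of the 44 40S genes against listed length in bp (log axis), in 1 panel per time. Filled points passed an adjusted p of 0.05. The 4 genes of up to 250 bp were all called lower at 0, 2 and 4 h and were the lowest 4 members at 4 h, and at 3 h 38 of 44 members were higher in UB22629.

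The members called higher at 4 h included RPS0A, RPS1A, RPS23A and RPS23B. RPS0A had 186, 152 and 145 CPM in UB22629, against 100.1, 111 and 68.3 CPM in UB20649, a log2 difference of 0.79 ± 0.21 (SE, edgeR adjusted p = 0.00338). RPS1A had 181, 153 and 134 CPM in UB22629, against 111, 115 and 84.4 CPM in UB20649 (log2 difference 0.59 ± 0.16, edgeR adjusted p = 0.00321). The libraries of the strains did not overlap for either gene. RPS23A and RPS23B, which encode a protein of the decoding centre, had 0.53 ± 0.15 and 0.52 ± 0.19 (SE, edgeR adjusted p = 0.00589 and 0.0247). RPS1A and both RPS23 copies were not called without scaling beyond the library total.

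In the third strain, UB14584, 43 of 44 genes were lower at 4 h than at 2 h and none was higher, against 26.8% of all features called lower and 26.6% called higher, with a median log2 change of -2.11. The exception was RPS28B, with 4.34 and 4.65 CPM at 4 h, against 11.8 and 5.66 CPM at 2 h. RPS9A again had the deepest fall, with 6.62 and 9.80 CPM at 4 h, against 71.4 and 80.5 CPM at 2 h (log2 change -3.22 ± 0.23, SE, edgeR adjusted p = 0.000185). The libraries of the times were far apart for RPS9A and did not overlap for any of the 44 genes. RPS2, RPS12 and RPS16B followed with -3.07 ± 0.23, -2.94 ± 0.17 and -2.92 ± 0.23 (SE, edgeR adjusted p = 0.00021, 0.000123 and 0.000249).

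By TL-seq the 5′ ends of the same genes fell as well. In replicates 1, 3 and 5, all 42 members with a cluster of 5′ ends were lower at 4 h than at 2 h by limma, against 20.2% of 5114 clusters called lower and 20.9% called higher, and the median log2 change was -2.15. No cluster was assigned to RPS26B or RPS27B. The midpoints of the clusters lay 2 to 100 bp upstream of the start codon, with a median of 46 bp. RPS9A had 34.8, 26.1 and 25.3 normalized reads at 4 h, against 521, 244 and 216 at 2 h, a log2 change of -3.36 ± 0.35 (SE, limma adjusted p = 7.32e-05). RPS12 had 349, 173 and 547 normalized reads at 4 h, against 2295, 2433 and 5091 at 2 h (log2 change -3.24 ± 0.44, limma adjusted p = 0.000376). Both genes were lower at 4 h in every library, with no overlap.

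RPS16B and RPS6B, a gene for the phosphorylated protein that reports on TOR signalling, had TL-seq changes of -2.90 ± 0.44 and -2.87 ± 0.44 (SE, limma adjusted p = 0.000708 and 0.000806). The weakest change was that of RPS28A, with 1125, 667 and 1541 normalized reads at 4 h, against 1917, 1553 and 2818 at 2 h (log2 change -0.95 ± 0.34, limma adjusted p = 0.0489). Across 42 genes the RNA-seq and TL-seq changes in UB14584 had a Pearson r of 0.75, a description over genes, which are not independent replicates. They differed by at most 0.5 on the log2 scale for 34 genes and by over 1 for 1 gene, ASC1. By TL-seq ASC1 had 229.6, 85.2 and 177 normalized reads at 4 h, against 905, 663 and 1401 at 2 h (log2 change -2.63 ± 0.39, limma adjusted p = 0.000658), whereas its RNA-seq change in that strain was -1.36 ± 0.30 (SE, edgeR adjusted p = 0.0113).

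**Figure D4:**
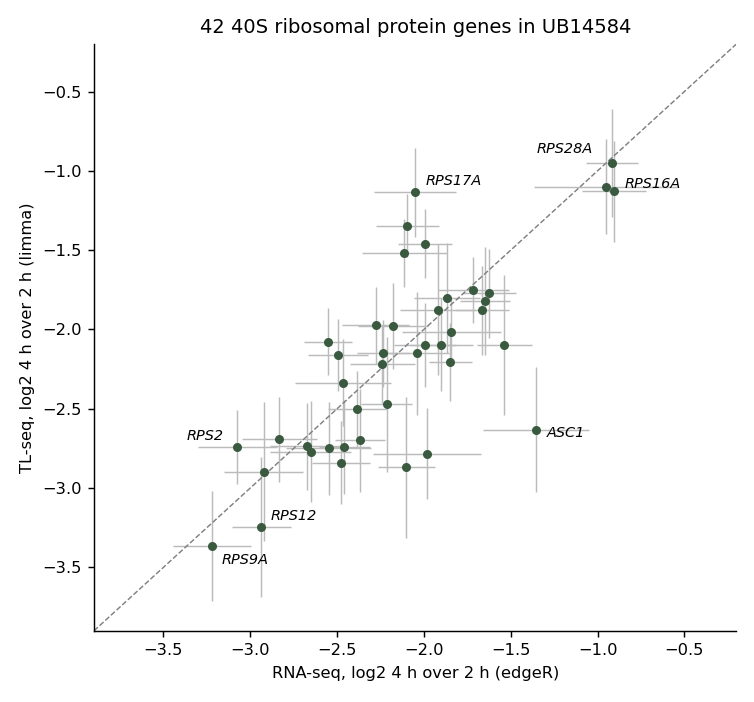
TL-seq change (limma, replicates 1, 3 and 5) against RNA-seq change (edgeR, replicates 4 and 5), both log2 4 h over 2 h in UB14584, for 42 40S genes, with standard errors and the line of equality. All points are below 0 on both axes, RPS9A and RPS12 are among the lowest, and ASC1 lies furthest from the line.

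In the separately normalized table of replicates 4 and 5, 26 of 36 members with a cluster were lower by limma and none was higher, against 15.6% of 4011 clusters called lower and 16.0% called higher. The median log2 change was -2.30. With a replicate block, which takes same-numbered samples as pairs, 35 of 36 were lower. Over all 4011 clusters that setting called 820 lower and 839 higher. All 10 members not called had introns, and all 16 without introns were called. At 2 h replicate 4 over replicate 5 had a median log2 ratio of -1.66 over the 20 members with introns, against -0.16 over the 16 without, and at 4 h -0.76 over the 17 with at least 20 normalized reads, against -0.14. Over all genes with introns the 2 h median was -0.94, against -0.07 over genes without. The part of this difference between replicates in the count was not tested.

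The largest falls in that table were those of RPS12, RPS9A, RPS2 and RPS22A. Their log2 changes were -3.20 ± 0.19, -3.02 ± 0.34, -3.02 ± 0.28 and -2.97 ± 0.32 (SE, limma adjusted p = 0.000387, 0.00196, 0.00106 and 0.00166). RPS22A encodes a protein deep in the body of the subunit. RPS12 had 281 and 293 normalized reads at 4 h, against 2534 and 2743 at 2 h, with no overlap.

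Per length, the members differed widely in level. RPS28A, RPS29B, RPS25A and RPS29A had the highest mean TPM over the 24 libraries, at 1859, 1714, 1269 and 774. RPS7B, ASC1, RPS7A and RPS9A had the lowest, at 29.8, 29.4, 25.5 and 15.3. RPS31 followed the top genes at 602. The order at the top was not the same in both strains. RPS25A, RPS29B, RPS28A and RPS31 led in UB22629, at 1589.6, 982, 912 and 706, whereas RPS28A, RPS29B, RPS29A and RPS25A led in UB20649, at 2806, 2446, 1051 and 949 (means of 12 libraries each). The top of the order must be read with the length: salmon divides by a length corrected for the fragment size, which becomes small for features of about 200 bp, and the listed length of genes with introns spans the intron. With the listed lengths of intron genes replaced by coding lengths, the top 4 and the lowest 4 members were the same, with RPS9A at 28.3 and ASC1 at 37.8.

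The copies of a pair were unequal in many cases. Over 24 libraries the log2 ratio of A over B in TPM averaged 2.68 for RPS25, 2.36 for RPS28, 1.68 for RPS26 and -2.31 for RPS27. The A copy was above the B copy in all 24 libraries for RPS25, RPS28 and RPS26 and in none for RPS27. The RPS27 ratio was -1.16 when reads were divided by the listed lengths, 599 bp for RPS27A and 338 bp for RPS27B. It was -0.38 when they were divided by coding bases, so its size depends on the length used. The direction does too: per coding base RPS27A was above RPS27B in 6 of 24 libraries, of which 5 were at 0 h. Pairs with a mean near 0 included RPS4, RPS0 and RPS16, at -0.18, -0.24 and 0.33. For RPS0 that mean covers tilts in opposite directions. Its log2 ratio in UB22629 was 0.43 ± 0.18 at 2 h and -0.81 ± 0.20 at 0 h, and in UB20649 0.42 ± 0.04 at 2 h and -1.02 ± 0.15 at 0 h (SD, n = 3 each). Of the 14 pairs, 7 had more of the A copy on average.

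RPS4 encodes a protein of the body of the subunit, and its near-equal ratio is uncertain. The coding sequences of its copies are 98.1% identical in the S288C reference and share a run of 158 bases. The copies of RPS24 share a run of 152 bases, and no other pair in the plot of A and B copies has one over 80. RPS4 and RPS24 also had fractional reads in all 24 libraries, as happens when a read is divided between copies. By TL-seq, which reads the 5′ leaders, the mean log2 ratio of A over B in replicates 1, 3 and 5 was -4.19 for RPS4. In that assay the 6 libraries ranged from -4.40 to -3.88, so the B copy was above the A copy in each.

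**Figure D5:**
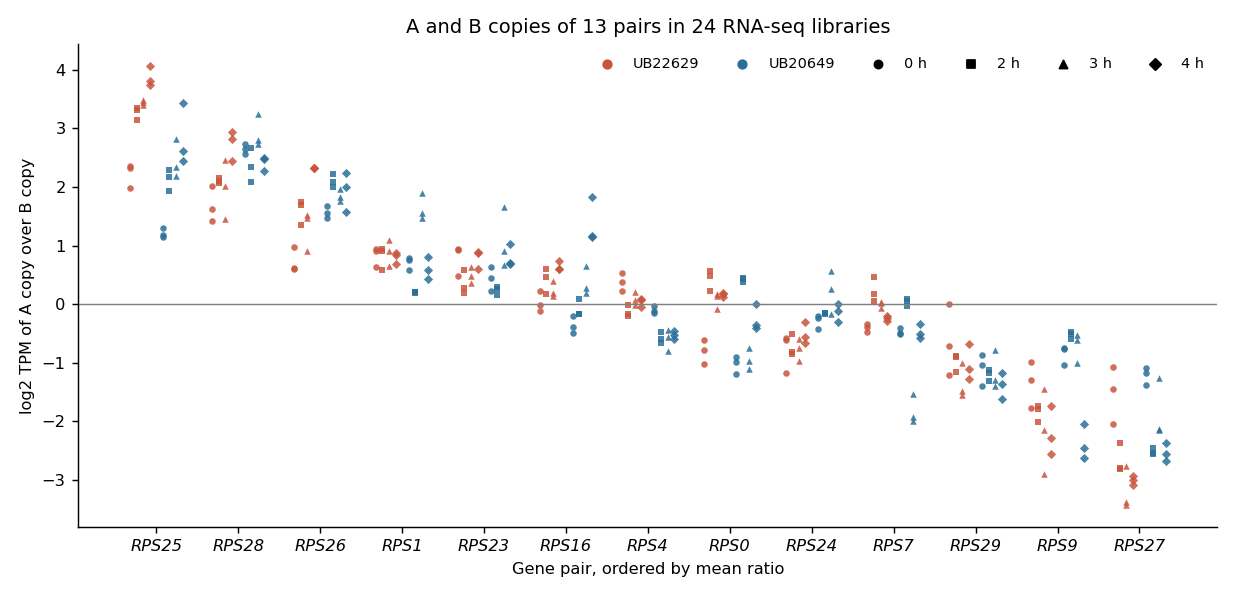
log2 ratio of the A copy over the B copy in TPM for 13 of 14 pairs, with pairs ordered by the mean of 24 RNA-seq libraries, UB22629 left of UB20649 within a pair and marker shape giving the time. RPS25, RPS28 and RPS26 stay above 0 and RPS9, RPS29 and RPS27 do not rise above it, while RPS16 in UB20649 moves to 1.15 to 1.82 at 4 h.

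The balance between copies moved with time in some pairs. The log2 ratio at 4 h minus 2 h was compared over the 12 libraries of both strains by an exact two-sided permutation test within strain, with 400 arrangements and a smallest possible p of 0.005. Of 14 pairs tested, 6 had an unadjusted p under 0.05, and 3 of these moved towards the A copy. The largest moves were those of RPS9 (-1.10, exact p = 0.015), RPS16 (0.85, exact p = 0.01), RPS25 (0.65, exact p = 0.005) and RPS23 (0.51, exact p = 0.005). RPS7 and RPS0 moved by -0.49 and -0.47 (exact p = 0.005 each). Without the library labelled UB22629 2 h replicate 1 the same 6 pairs had a p under 0.05, with 200 arrangements. With a replicate left out the smallest p the test allows is 0.0556, so none of the 6 could pass.

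For RPS9 the log2 ratio of A over B in UB22629 was -1.74, -2.55 and -2.29 at 4 h, against -1.73, -1.79 and -2.01 at 2 h. In UB20649 it was -2.45, -2.04 and -2.63 at 4 h, against -0.51, -0.47 and -0.59 at 2 h. The times overlapped in UB22629 and were separated in UB20649. The mean moves were -0.35 in UB22629 and -1.85 in UB20649, and the difference between the strains was not tested. In UB14584 the RNA-seq ratio was -2.94 and -2.81 at 4 h, against -1.66 and -1.71 at 2 h. The TL-seq ratio moved by -1.21 in replicates 1, 3 and 5 and by -0.70 in replicates 4 and 5.

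For RPS16 the log2 ratio of A over B in UB22629 was 0.74, 0.61 and 0.60 at 4 h, against 0.18, 0.61 and 0.46 at 2 h. In UB20649 it was 1.17, 1.15 and 1.82 at 4 h, against 0.09, -0.17 and -0.16 at 2 h. In UB20649 the copies were thus near balance before induction and tilted to RPS16A (YMR143W) after it, with no overlap. In UB14584 the RNA-seq ratio was 2.41 and 2.29 at 4 h, against 0.42 and 0.25 at 2 h, and the TL-seq ratio moved by 1.77. RPS16A lies on chromosome XIII from 524723 to 525699 and RPS16B on chromosome IV from 319021 to 319884 in the deposited SK1 annotation, both with an intron. RPS16 reads were fractional in 23 of 24 libraries.

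For RPS25, a pair without introns, the ratio in UB22629 was 3.74, 4.07 and 3.81 at 4 h, against 3.32, 3.14 and 3.34 at 2 h. In UB20649 it was 2.62, 2.44 and 3.43 at 4 h, against 1.93, 2.28 and 2.17 at 2 h. The 4 h libraries were above the 2 h libraries in both strains. In UB14584 the RNA-seq ratio was 2.84 and 2.88 at 4 h, against 3.05 and 2.53 at 2 h, so the times overlapped, and the TL-seq ratio moved by -0.02. The move seen in UB22629 and UB20649 was thus not seen in UB14584 by either assay. For RPS23 the mean ratio in UB22629 was 0.79 ± 0.16 at 4 h and 0.35 ± 0.21 at 2 h, and in UB20649 0.81 ± 0.19 at 4 h and 0.24 ± 0.08 at 2 h (SD, n = 3 each). In UB14584 the RPS23 ratio by RNA-seq was 0.41 and 0.50 at 4 h, against 0.21 and 0.44 at 2 h, and the times overlapped. Its TL-seq ratio in that strain moved by -0.34 in replicates 1, 3 and 5 and by 0.13 in replicates 4 and 5.

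RPS9A and RPS9B showed an assay difference in level too. By RNA-seq the A copy was below the B copy in all 24 libraries and made up 27.3% of the pair in TPM. By TL-seq in replicates 1, 3 and 5 the log2 ratio of A over B averaged 0.36, with libraries from -1.34 to 1.66. In replicates 4 and 5 it averaged 2.05. Replicate 4 had 4.15 at 4 h and 4.05 at 2 h, where RPS9B had 0 and 8.37 normalized reads. Replicate 5 had -0.75 at 4 h and 0.76 at 2 h in that table. The cause was not tested.

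The large subunit moved with the small. Of 64 genes for 60S proteins, 63 were lower and 1 higher at 3 h over 2 h in UB20649, with a median of -2.89. Over all features 31.2% were called lower and 35.0% higher. At 4 h over 2 h 63 were lower and 1 higher, with a median of -1.67, against 31.0% called lower and 34.2% higher. The exception at both times was RPL15B, with 100.0 ± 9.6 CPM at 4 h and 40.4 ± 0.20 CPM at 2 h (SD, n = 3 each). In UB22629, 35 were lower at 4 h over 2 h, with a median of -0.64, against 14.0% of all features called lower. The interaction from 2 h to 4 h was called higher for 49 and lower for 1, against 18.3% called higher and 20.6% lower.

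Mitochondrial small-subunit genes did not share these changes. Of 30 of them, 25 (83.3%) were lower and none higher at 2 h over 0 h in UB20649, against 25.0% of all features called lower, and 17 (56.7%) were higher and 2 lower at 4 h over 2 h, against 34.2% called higher and 31.0% called lower. The 40S genes did the reverse at both times. Among 14 factors for 40S assembly, 1 was higher and 5 (35.7%) lower at 4 h over 2 h in UB20649, and among 23 regulators of ribosomal protein genes 9 (39.1%) were higher and 5 (21.7%) lower. The 35.7% and the 39.1% are close to the shares of all features. CRF1, the gene for a co-repressor of ribosomal protein genes, had 40.1 ± 2.8 CPM at 4 h and 262.6 ± 18.6 CPM at 2 h in UB20649 (SD, n = 3 each, log2 change -2.71 ± 0.26, SE, edgeR adjusted p = 1.23e-08). RAP1, the gene for the activator bound at most of these promoters, had 322 ± 13.6 CPM at 4 h and 109 ± 10.1 CPM at 2 h (log2 change 1.56 ± 0.10, edgeR adjusted p = 4.25e-11).

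Strong Ume6 peaks lay at 40S genes about as often as elsewhere. A peak with a fold enrichment of at least 4 in 2 of 3 replicates lay within 300 bp of the 5′-end cluster of 6 of 42 members (14.3%), against 707 of 4995 other genes (14.2%). A called peak of any fold enrichment, in at least 2 of 3 replicates, lay within that distance of 12 members (28.6%). This held for 1048 other genes (21.0%), and neither difference was tested. The 6 were RPS24B, RPS22A, RPS16A, RPS4B, RPS18A and RPS9B. RPS24B had the highest fold enrichment, with 16.0, 10.8 and 8.72 in the 3 replicates and summits 120, 126 and 120 bp upstream. RPS16A had 9.25, 7.59 and 8.94, and RPS22A had 5.96, 10.7 and 9.65. RPS9A had no called peak there, and RPS16B had 1 in a single replicate, with a fold enrichment of 3.44.

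The first nucleosome downstream of the 5′-end cluster was compared in the pooled MNase-seq tracks of UB14584, for which no test was possible. How many of the labelled libraries were pooled is not settled here. Over 42 members the median log2 occupancy at 4 h over 2 h was -0.10, and it was higher at 4 h for 15. Over 4983 other genes the median was -0.20, and 814 were higher.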

How the data were processed

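For RNA-seq the authors deposited salmon output, holding TPM and expected counts per gene region of the SK1 assembly. The kit was stranded and poly(A)-selected, and the strand setting is not given in the sources used here. The deposited TL-seq values are a signal of normalized reads per cluster of 5′ ends, called by the authors with CAGEr after STAR alignment, and whole reads were recovered for 100% of values within 0.01 of a read. The edgeR test on those reads, an alternative, called 41 members lower in replicates 1, 3 and 5 (1037 clusters higher and 1026 lower in all) and 27 in replicates 4 and 5 (556 and 641). Columns with the authors' own fold changes and p-values for 4 h against 2 h were not used. The authors' macs2 peaks (q 0.001) give a fold enrichment ratio, with the deposited start and summit coordinates used for position. The MNase-seq values are the authors' pooled DANPOS signal of nucleosome occupancy. 12 per-sample columns were not used.

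Expected counts were rounded, filtered with filterByExpr, TMM-scaled and tested by edgeR 4.0.16 (quasi-likelihood) in R 4.3.3. TL-seq was tested with limma 3.58.1 on log2(normalized reads + 1), so its fold changes are on that scale. DESeq2 1.42.0 was an alternative. Adjusted p-values were adjusted over all features tested, whereas those of the permutation test and those called unadjusted were not. Scripts were tested on simulated data. Ratios between copies were compared by exact permutation. The TL-seq reads recovered within gene clusters numbered 3195012 to 8243174 per library in replicates 1, 3 and 5. They numbered 1211357 to 3099661 in the table of replicates 4 and 5. These are not the sizes of whole libraries. Samples were grouped by their labels. Nothing in the labels says that the replicates were separate cultures, so p-values measure only the spread between these libraries, which may be technical. The members and gene lists were chosen with earlier results of these data known. Genes named are, in each comparison, up to 4 members with the largest change in each direction among those called with no overlap between groups, members called against the majority, the single-copy members, the 4 highest and 4 lowest in mean TPM, and the 4 most unequal, 4 most equal and 4 most moved pairs. Other genes were singled out after their values were seen. Some members that this rule names are not reported here, though the counts include them. For TL-seq replicates 1, 3 and 5, deviations from the group means were correlated between 2 h and 4 h. Same-numbered samples had correlations of 0.159, 0.168 and 0.382. Those of different numbers ranged from -0.344 to 0.258, so pairing by number is not settled. Tables normalized separately were tested separately. No sequences are printed, because the genome used was S288C, which served for gene names and for identity between copies only.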

Additional observations from a re-analysis of the deposited data

Results flagged for a closer look

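The effect of time differed between the strains for 34 of the 44 40S genes, by the edgeR test of the interaction between strain and the change from 2 h to 4 h. The 4 largest differences, UB22629 over UB20649 on the log2 scale, were 2.34 for RPS9A, 1.73 for RPS16B, 1.62 for RPS12 and 1.57 for RPS18A. The strains already differed at 2 h, with a median of -1.15 over the 44 genes, against 0.18 at 4 h. Unequal levels at 2 h thus enter the interaction, and the cause of the differences was not tested. RPS18A had 71.0, 59.7 and 58.4 CPM at 4 h, against 112, 89.9 and 102 CPM at 2 h, in UB22629. In UB20649 it had 97.5, 99.8 and 33.9 CPM at 4 h, against 407, 358 and 346 CPM at 2 h. Replicate 3 was the lowest of these 4 h libraries.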

How the results depend on the processing

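Leaving out each replicate in turn gave 16 to 34 members higher at 2 h over 0 h in UB22629, 3 to 17 lower at 4 h over 2 h in UB22629, 0 to 28 called between the strains at 0 h, 17 to 41 at 2 h and 5 to 14 at 4 h, and 25 to 38 higher at 4 h over 3 h in UB20649. The 4 h split was 4 higher and 10 lower without replicate 3. Without scaling beyond the library total, 8 were called at 4 h, 1 higher and 7 lower, against 667 of all features higher and 2135 lower. The median of all features then shifted to 0.66 at 3 h over 2 h in UB20649, with 3386 features higher and 762 lower, against 1921 and 1712. In that setting 42 of the 44 genes were lower at 3 h over 2 h in UB20649. With A and B copies summed, 11 were called at 0 h and 8 at 4 h, and among members over 400 bp 10 and 7. In RNA-seq same-numbered libraries are taken to share only a number. Their correlations in UB20649 were 0.54, 0.5 and 0.0998 between 0 h and 2 h, where libraries of different numbers had -0.556 to 0.226. Between 2 h and 3 h they were 0.207, 0.308 and -0.0338, and between 2 h and 4 h -0.0783, 0.2 and -0.0458. In UB22629 they were -0.321 to 0.235. Pairing by number is thus not settled for RNA-seq, least of all between 0 h and 2 h in UB20649. A fit with the replicate block within strain called 28 at 0 h, 21 at 4 h, 44 at 2 h, 40 in the interaction from 2 h to 4 h and 1 in that from 0 h to 2 h, where DESeq2 also called 1 and edgeR none. Counts over all features are not given here for this block, the summed copies or the left-out replicates. Changes in the member counts of those settings thus cannot be set against all features. Without the library labelled UB22629 2 h replicate 1, 42 were called at 2 h. For TL-seq replicates 4 and 5, 16 of 16 members without introns were called, an alternative chosen after seeing the data, as were those on members over 400 bp. A called Ume6 peak of any fold enrichment, in at least 2 of 3 replicates, was near 12 members (28.6%), against 21.0% of other genes. With a replicate left out, UB14584 RNA-seq and TL-seq replicates 4 and 5 have no residual degrees of freedom and gave values without a test.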
